A study of Homo sapiens with 4 samples.

Results

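The genes described here carry the signal of transforming growth factor beta (TGF-beta) from the cell surface to the nucleus in A375 and SK-MEL-28, which are established human cutaneous melanoma cell lines. The set holds 10 of the 18175 genes and loci of the deposited expression table, and each was chosen by its gene name. They are the ligand genes TGFB1, TGFB2 and INHBA, the receptor genes TGFBR1 and TGFBR2, the SMAD genes SMAD2, SMAD3, SMAD4 and SMAD7, and TGFBI, a matrix protein gene named for its induction by TGF-beta.

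The study has 4 groups with 1 RNA sequencing library each: A375 with siNC, A375 with siLINC01291, SK-MEL-28 with siNC and SK-MEL-28 with siLINC01291. The siRNA of the treated groups is directed at the long non-coding RNA LINC01291, and siNC is the control. All 4 groups were grown in Dulbecco's modified Eagle medium with fetal bovine serum. The treatment label also lists EL without explaining it, and the dose and duration of the siRNA are not given in the sources used here. Each line is a single culture model, so a difference between the lines is a difference between 2 lines and not between 2 kinds of melanoma. Depth was 29351240 to 31815336 counts per library. LINC01291 had 827 and 304 counts in A375 (siNC, then siLINC01291) and 998 and 454 in SK-MEL-28. The silenced libraries thus held 34.5% (95% interval 30.2 to 39.4) and 44.5% (39.7 to 49.7) of the control level, and LINC01291 fell over both lines (log2 change -1.34, SE 0.13, edgeR adjusted p = 0.0171). SOX10, a neural crest and melanocyte transcription factor, had an FPKM of 80.1 to 147 in the 4 libraries. A375 held little RNA of the pigment genes MLANA (FPKM 0.830 and 0.774) and TYR (0.112 and 0.0846). The summed FPKM of 9 melanocyte markers was 93.1 and 133 in A375 against 1618 and 1938 in SK-MEL-28. SOX10 made up 80.1 and 118 of the A375 sum, and PMEL 804 and 1043 of the SK-MEL-28 sum. TYRP1 (1.34 and 1.83) and S100A1 (1.10 and 1.58) were low in SK-MEL-28 too. The marker sum differs between the lines along with the members described below, and its part in those differences was not tested. Of the leukocyte and endothelial markers, 0 of 4 and 0 of 3 were among the genes analysed. Epithelial markers had 2 of 4, with KRT14 at an FPKM of 6.16 and 7.32 in A375 and under 1 in SK-MEL-28, and fibroblast markers 2 of 5, with LUM at 3.25 to 8.07 in the 4 libraries and PDGFRB at 1.56 and 1.82 in A375. The summed FPKM of the epithelial list was 6.27 and 7.46 in A375 and 0.810 and 0.905 in SK-MEL-28, and that of the fibroblast list was 4.81 and 5.56 against 7.84 and 8.09. Their part in the results was not tested.

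TGF-beta ligands bind the type II receptor TGFBR2, which recruits and phosphorylates the type I receptor TGFBR1. The activated type I receptor phosphorylates SMAD2 and SMAD3, which join SMAD4 and enter the nucleus, where the complex acts on target genes together with other transcription factors. SMAD7 is induced by the pathway and blocks the receptors in return. The pathway restrains the growth of normal melanocytes, and melanoma cells often secrete its ligands while escaping that growth arrest.

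The sequences around the start sites of 3 members are shown. TGFBR2 was taken for the lowest ratios to the siNC level over both lines. INHBA and TGFB1 were taken as 2 of the 3 tested members higher in A375. Each sequence is 1 window of 300 bases on GRCh38.p14. The windows run from 250 before to 50 after the RefSeq start nearest to the start of the principal transcript. They were read 5′ to 3′ on the gene's strand. For TGFBR2 (chr3:30606351-30606650, plus strand) the capitals mark an AP-1 type motif, TGANTCA, whose first base is at position -6 from the start. For INHBA (chr7:41703041-41703340, minus strand) they mark TATAAA at position -11, and for TGFB1 (chr19:41353873-41354172, minus strand) the 7 matches to the GC box GGGCGG or its complement CCGCCC. Only 1 kind of motif is marked per window. TGFBR2 also holds GC boxes, at positions -198 and -80, which are left in small letters.
TGFBR2: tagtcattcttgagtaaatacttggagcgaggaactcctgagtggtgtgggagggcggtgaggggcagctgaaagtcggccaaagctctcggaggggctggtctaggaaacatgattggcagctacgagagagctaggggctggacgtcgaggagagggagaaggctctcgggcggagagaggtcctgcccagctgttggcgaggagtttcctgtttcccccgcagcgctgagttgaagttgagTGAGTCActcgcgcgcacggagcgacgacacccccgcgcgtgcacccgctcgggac
INHBA: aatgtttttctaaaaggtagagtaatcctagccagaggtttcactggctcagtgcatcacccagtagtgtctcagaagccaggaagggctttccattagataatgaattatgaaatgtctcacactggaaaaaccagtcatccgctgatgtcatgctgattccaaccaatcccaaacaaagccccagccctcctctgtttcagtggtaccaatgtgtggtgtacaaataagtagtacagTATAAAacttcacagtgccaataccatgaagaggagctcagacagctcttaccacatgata
TGFB1: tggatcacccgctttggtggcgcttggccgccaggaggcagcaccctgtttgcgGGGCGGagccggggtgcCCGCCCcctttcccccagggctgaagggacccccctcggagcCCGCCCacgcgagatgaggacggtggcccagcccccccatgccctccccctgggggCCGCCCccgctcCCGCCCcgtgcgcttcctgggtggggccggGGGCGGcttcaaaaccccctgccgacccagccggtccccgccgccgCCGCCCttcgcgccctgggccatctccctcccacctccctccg

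The 10 start-site windows differed in composition. GC content was 43.3% in INHBA, 61.7% in TGFBR2, 77.3% in TGFB1 and 84.0% in SMAD2, where the median of 35116 RefSeq start-site windows was 58.7%. Both strands were searched for 4 motifs, none of which is contained in another. TGANTCA was in 1 of the 10 windows, in TGFBR2, and in 7.71% of all windows. TATAAA was in 2 of 10, in INHBA and TGFB2, and in 11.5% of all. GGGCGG was in 7 of 10 and in 44.95% of all. The SMAD palindrome GTCTAGAC was in 0 of 10 and in 0.202% of all. These are matches of letters, and binding of a factor was not measured.

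The 3′ untranslated regions (UTRs) were searched for the words CTATGAA and TCTATGA, which an earlier look at these data had found to go with low ratios. The words were in 2 of 10 members, TGFBR1 and SMAD2, and in 14.5% of the 10728 tested genes that were searched. TGFBR1 held 2 sites in a 3′ UTR of 4887 bases, and SMAD2 held 5 in one of 32870 bases, longer than that of 99.99% of the genes searched. The 2 TGFBR1 sites and the SMAD2 site with the joined word are printed on the gene's strand with the word in capitals, from GENCODE 29 on GRCh38 (chr9:99149493-99149519, chr9:99150865-99150891 and chr18:47839938-47839965).
TGFBR1 first site: tttctgtgcaCTATGAAcgcttctttc
TGFBR1 second site: acttccaatgCTATGAAgtctctgcag
SMAD2 joined site: atcttacttgTCTATGAAggagataaac
TGFBR2 and SMAD3, the members with the lowest ratios over both lines, held neither word in any of the 2 and 5 protein-coding transcripts searched. The genes with a word had median ratios on the log2 scale of -0.09 (A375) and -0.18 (SK-MEL-28), and both medians were 0.01 in the genes without one. Since the words were picked from these same data for going with low ratios, these medians are no independent evidence. The word-holding TGFBR1 had 0.21 and -0.20, and SMAD2 0.03 and -0.11.

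Over both lines, none of the members passed the test for a change with siLINC01291. The quasi-likelihood test of edgeR, fitted with a term for the line, called 0 of the 9 members tested, where 0.674% of 13501 genes fell and 0.222% rose at an adjusted p under 0.05. At an unadjusted p under 0.05 there were 2 members (TGFBR2 and SMAD3) and 2282 genes. DESeq2 called 1 member, TGFBR2, and limma called 0. The median log2 change of the 9 members was -0.05, and that of all genes tested was 0.01. The model has 1 residual degree of freedom, since the other line is the only repeat of the treatment. Within a line there is 1 library per group, so the values below are ratios without a replicate check. Their 95% intervals (exact binomial, on counts scaled by TMM factors) cover counting error only. RNA was taken from whole cultures, in which fewer cells of a type and less RNA per cell cannot be told apart.

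**Figure D1:**
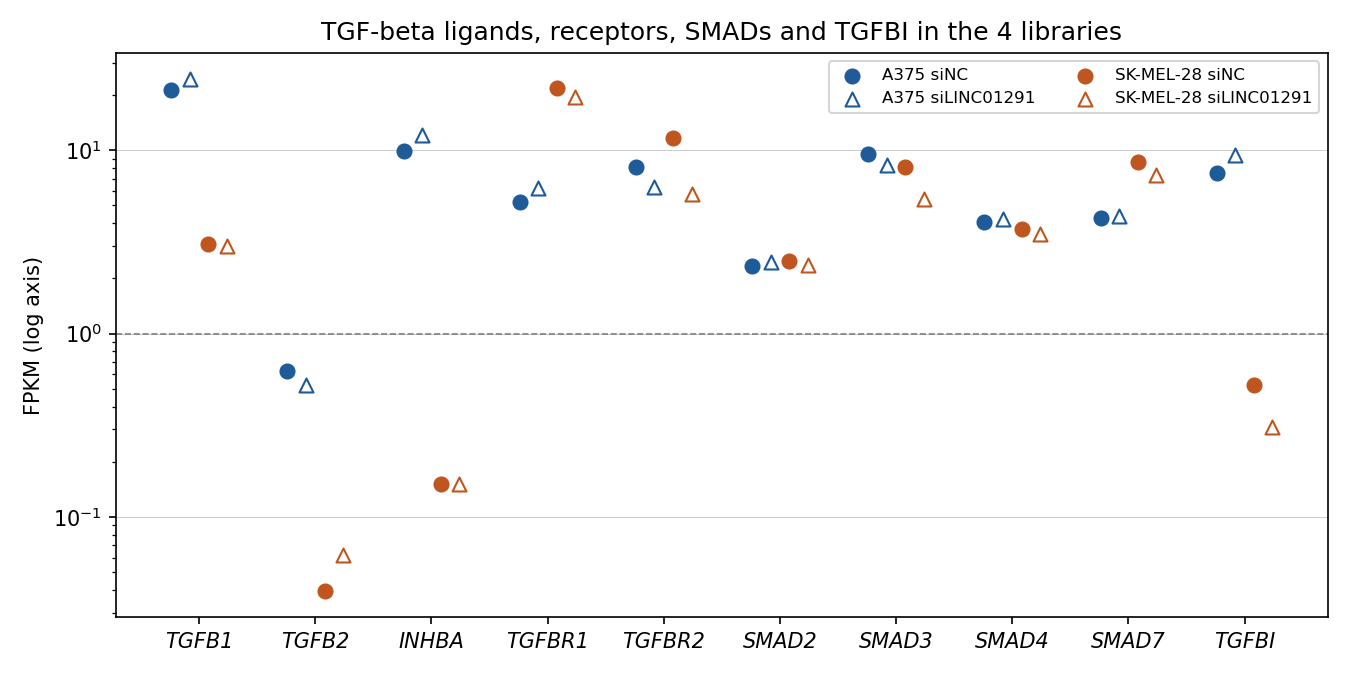
Levels of the 10 members in the 4 libraries, as deposited FPKM on a log axis. Each symbol is 1 library, circles for siNC and triangles for siLINC01291, blue for A375 and orange for SK-MEL-28, and the dashed line marks an FPKM of 1. TGFB1, INHBA and TGFBI lie higher in A375 and TGFBR1 and SMAD7 higher in SK-MEL-28, while the symbols of a line lie close together except for TGFBR2 and SMAD3 in SK-MEL-28 and the low values of TGFB2 and TGFBI.

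The ligand genes separated the lines far more than the siRNAs did. TGFB1 encodes the most widely expressed TGF-beta ligand and lies at chr19:41301587-41353911 (GRCh38, minus strand). Its FPKM was 21.3 with siNC and 24.6 with siLINC01291 in A375, and 3.09 and 3.02 in SK-MEL-28. Both A375 libraries were above both SK-MEL-28 libraries, and TGFB1 was 6.69-fold higher in A375 (log2 SK-MEL-28 over A375 -2.74, SE 0.12, edgeR adjusted p = 4.44e-06). The ratio of siLINC01291 to siNC was 0.16 in A375 and -0.07 in SK-MEL-28 on the log2 scale, and the change over both lines was 0.07 (SE 0.11, edgeR adjusted p = 0.811). The gene shares 215 exonic bases, 6.64% of its exonic length, with HNRNPUL1 on the opposite strand. No source used here says whether counting used the strand, and reads from those bases could belong to either gene.

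INHBA encodes the inhibin beta A chain, whose dimer is activin A, a ligand that signals through SMAD2 and SMAD3 by way of activin receptors. It lies at chr7:41667168-41705834 (minus strand). INHBA counts were 2556 and 3206 in A375 (siNC, then siLINC01291) and 37 and 37 in SK-MEL-28, which is an FPKM of 9.96, 12.1, 0.152 and 0.152. It was well above an FPKM of 1 in A375 and below it in SK-MEL-28 in either treatment. INHBA was 64.6-fold higher in A375 (log2 -6.01, SE 0.15, edgeR adjusted p = 7.84e-07). The INHBA ratio to siNC was 0.24 in A375 (0.16 to 0.31) and -0.03 in SK-MEL-28, and the change over both lines was 0.19 (SE 0.13, edgeR adjusted p = 0.498).

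TGFB2, a ligand that needs the co-receptor betaglycan for high-affinity binding, was the least abundant member and was not tested because it stayed below an FPKM of 1 in every library. It lies at chr1:218346235-218444619 (plus strand). TGFB2 had 117 and 101 counts in A375 and 7 and 11 in SK-MEL-28, an FPKM of 0.624, 0.523, 0.0392 and 0.0618. Its ratio of 0.51 in SK-MEL-28 rests on those few counts, as the interval from 54.4 to 467% of the siNC level shows. Of its exonic bases, 26.6% are shared with TGFB2-OT1 on the same strand.

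INHBA had the largest range of the 10 members over the 4 libraries, 6.05 on the log2 scale. The search covered 7828 other protein-coding genes that reached an FPKM of 5 in 1 or more libraries. The nearest in pattern were CLMP, HLA-DPA1, SH2D4A, FSCN1 and CD70, at distances of 0.21 to 0.30 (Euclidean, over 4 centred log2 CPM values). CLMP had an FPKM of 6.58 and 9.27 in A375 and of 0.0939 and 0.0874 in SK-MEL-28. FSCN1, an actin-bundling protein, had 108 and 120 against 1.72 and 1.38. The likeness rests on 2 lines and describes how far these genes differ between them.

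The type II receptor gene TGFBR2 had the lowest ratio to the siNC level of the 10 members in each line. It lies at chr3:30606502-30694142 (plus strand), and the start-site window printed above belongs to it. TGFBR2 counts were 1730 with siNC and 1378 with siLINC01291 in A375, and 2365 and 1171 in SK-MEL-28, an FPKM of 8.15, 6.30, 11.7 and 5.81. Both silenced libraries lay below both control libraries, and the 2 silenced libraries lay close to each other. The level left was 74.8% of siNC in A375 (69.6 to 80.3) and 48.4% in SK-MEL-28 (45.1 to 51.9). On the log2 scale these are ratios of -0.42 and -1.05. The intervals of the 2 lines do not overlap, but they cover counting error only, and the difference between the lines was not tested. Over both lines the change was -0.73 (SE 0.16) with an unadjusted p of 0.00318 and an edgeR adjusted p of 0.101, so the call was missed. DESeq2's Wald test gave TGFBR2 an adjusted p of 0.0268, and edgeR on all 18175 genes without a filter gave 0.0387. The adjusted p over all alternatives ran from 0.0268 to 1.00, with changes from -0.76 to -0.61. Between the lines TGFBR2 was 0.37 higher in SK-MEL-28 on the log2 scale (SE 0.16, edgeR adjusted p = 0.0701), with 0.71 in the siNC libraries and 0.08 in the siLINC01291 libraries.

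The type I receptor gene TGFBR1 (chr9:99104038-99154192, plus strand) was the most abundant member in SK-MEL-28. Its FPKM was 5.20 with siNC and 6.23 with siLINC01291 in A375, and 21.9 and 19.5 in SK-MEL-28. TGFBR1 was 4.07-fold higher in SK-MEL-28 (log2 2.03, SE 0.12, edgeR adjusted p = 1.93e-05). The ratios to siNC pointed in opposite directions, at 0.21 in A375 (0.10 to 0.33) and -0.20 in SK-MEL-28 (-0.26 to -0.14). Neither interval of counting error reaches 0, and the change over both lines was 0.01 (SE 0.12, edgeR adjusted p = 0.988). The receptors stood in different proportions in the control libraries, with TGFBR2 at an FPKM of 8.15 and TGFBR1 at 5.20 in A375, and TGFBR2 at 11.7 and TGFBR1 at 21.9 in SK-MEL-28.

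**Figure D2:**
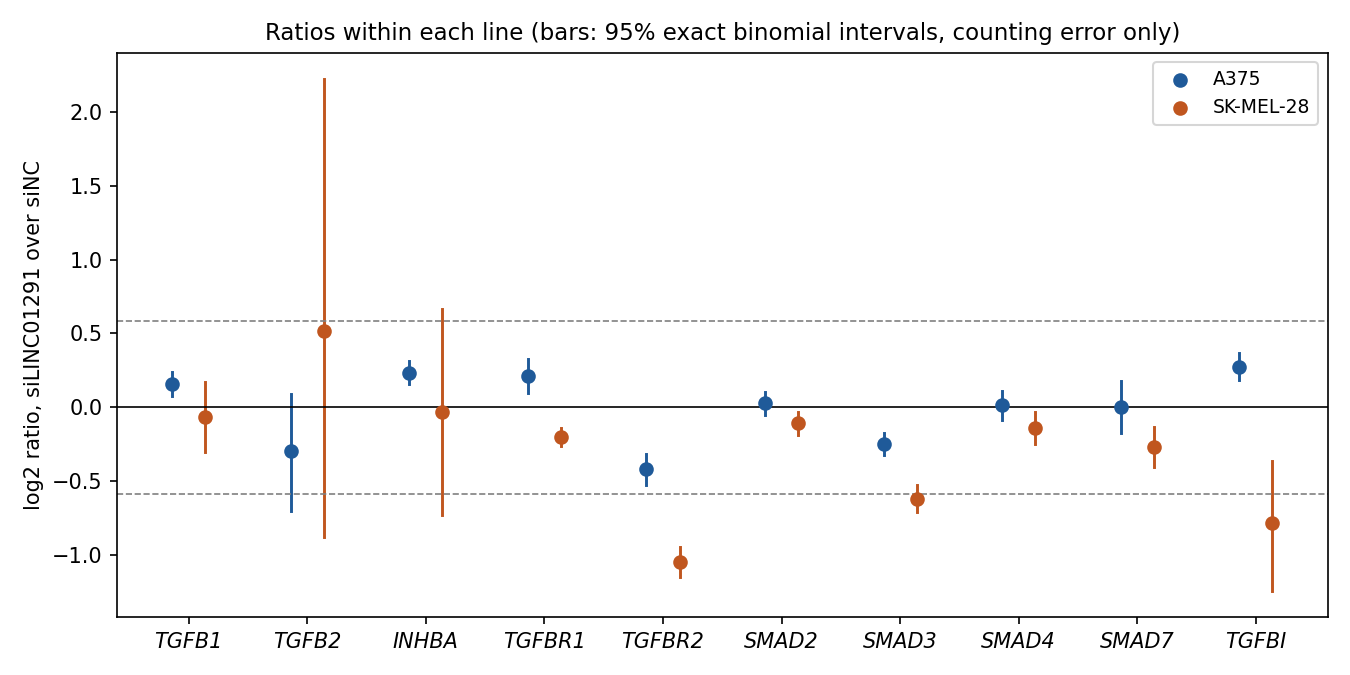
Log2 ratio of siLINC01291 to siNC for the 10 members, blue in A375 and orange in SK-MEL-28. Vertical bars are 95% exact binomial intervals of counting error from 1 library per group, and dashed lines mark 1.5-fold. TGFBR2 is at -0.42 and -1.05 and SMAD3 at -0.25 and -0.62, while the bars of TGFB2, INHBA and TGFBI in SK-MEL-28 are wide because their counts are low.

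Of the receptor-activated SMADs, SMAD3 had the lower ratios. SMAD3 (chr15:67063763-67195195, plus strand) had 2969 and 2661 counts in A375 and 2385 and 1589 in SK-MEL-28, an FPKM of 9.60, 8.35, 8.11 and 5.41. The 2 silenced libraries held 84.1% of the siNC level in A375 (79.8 to 88.7) and 65.1% in SK-MEL-28 (61.1 to 69.4). The SK-MEL-28 siLINC01291 library was the lowest of the 4, and the FPKM of A375 siLINC01291 was above that of SK-MEL-28 siNC, so the treatments overlap on that scale. After TMM scaling they did not, with CPM of 91.4 and 87.8 in the controls against 76.9 and 57.2. SMAD3 changed by -0.42 on the log2 scale over both lines (SE 0.12, unadjusted p 0.00958, edgeR adjusted p = 0.154) and was not called by any of the other tools. An antisense gene, AC087482.1, shares 2.00% of the exonic bases of SMAD3. Between the lines, SMAD3 was 1.20-fold higher in A375 and did not pass (edgeR adjusted p = 0.0751).

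SMAD2 (chr18:47808957-47931146, minus strand) was the steadier of the pair. Its normalised CPM was 81.0 and 82.5 in A375 and 98.5 and 91.4 in SK-MEL-28, a range of 0.28 on the log2 scale against 0.68 for SMAD3. The FPKM of SMAD2 was only 2.33, 2.46, 2.49 and 2.37, since the authors divided by a length of 36426 bases, against 9981 for SMAD3. SMAD2 was thus below SMAD3 in FPKM in all 4 libraries, while its normalised CPM was above that of SMAD3 in 3 of 4, all but A375 siNC. The SMAD2 ratio was 0.03 in A375 and -0.11 in SK-MEL-28, with a change of -0.03 over both lines (SE 0.09, edgeR adjusted p = 0.900).

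SMAD4, the shared partner of the receptor-activated SMADs, had the smallest range of the 10 members, 0.14 on the log2 scale. It lies at chr18:51028394-51085045 (plus strand). Its FPKM was 4.07 and 4.24 in A375 and 3.74 and 3.48 in SK-MEL-28, and its normalised CPM ran from 48.3 to 53.2. The change with siLINC01291 was -0.05 (SE 0.10, edgeR adjusted p = 0.836), and the difference between the lines was -0.04 (SE 0.10, edgeR adjusted p = 0.734). AC091551.1, on the same strand, shares 7.37% of its exonic bases.

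SMAD7, the inhibitory SMAD and itself a target of the pathway, was higher in SK-MEL-28. It lies at chr18:48919853-48952052 (minus strand). SMAD7 had an FPKM of 4.26 and 4.41 in A375 and of 8.64 and 7.35 in SK-MEL-28. The difference between the lines was 2.06-fold (log2 1.04, SE 0.12, edgeR adjusted p = 0.000322). The SMAD7 ratio to siNC was 0.00 in A375 and -0.27 in SK-MEL-28, where 83.0% of the control level was left (75.7 to 91.0). Over both lines the change was -0.13 (SE 0.12, edgeR adjusted p = 0.641).

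TGFBI, the matrix protein gene at chr5:136028895-136063818 (plus strand), was expressed in A375 and stayed under an FPKM of 1 in SK-MEL-28. It had 1808 and 2331 counts in A375 and 119 and 70 in SK-MEL-28, an FPKM of 7.56, 9.46, 0.523 and 0.308. TGFBI was 18.3-fold higher in A375 (log2 -4.19, SE 0.25, edgeR adjusted p = 1.55e-05). With siLINC01291 it stood at 121% of siNC in A375 (114 to 129) and at 57.5% in SK-MEL-28 (42.2 to 77.9). The ratios of 0.27 and -0.78 point in opposite directions, the second from a level under an FPKM of 1. TGFBI changed by -0.05 over both lines, with the largest SE of the members tested (0.23, edgeR adjusted p = 0.946).

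By size, 0 of the 9 members expressed in A375 were at least 1.5-fold higher or lower with siLINC01291, where 3.95% of the 13244 genes expressed there were higher and 3.94% lower. Expressed here means an FPKM of at least 1 in either library of the line. In SK-MEL-28, 2 of 7 expressed members were at least 1.5-fold lower, TGFBR2 at 2.06-fold and SMAD3 at 1.53-fold, and 0 were higher, where 5.08% of 12336 genes were lower and 6.32% higher. SMAD3 sits just past that size and falls short of it when only library totals are used for scaling. The median log2 ratio of the expressed members was 0.03 in A375 and -0.20 in SK-MEL-28, against -0.01 and 0.00 over all expressed genes.

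**Figure D3:**
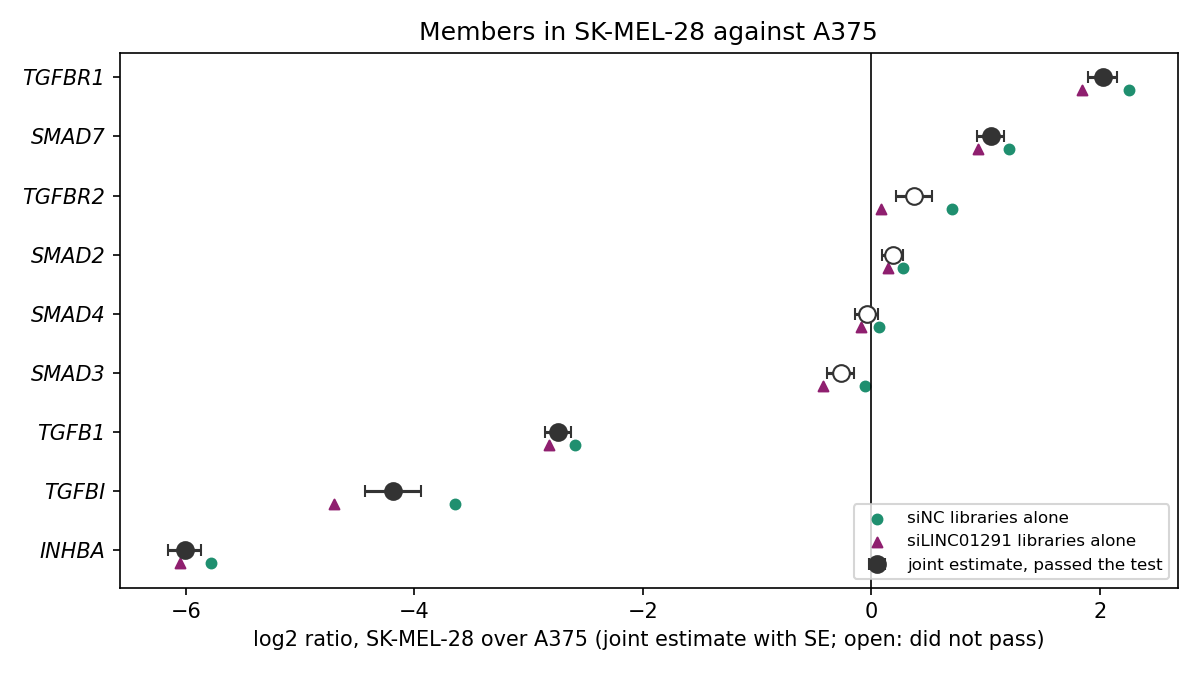
Log2 ratio of SK-MEL-28 to A375 for the 9 members tested. Large circles are the estimate over both treatments with its SE as a bar, filled where the test was passed and open where it was not, and small circles and triangles are the siNC and siLINC01291 libraries alone. INHBA, TGFBI and TGFB1 lie at -6.01, -4.19 and -2.74, TGFBR1 and SMAD7 at 2.03 and 1.04, and TGFBR2, SMAD2, SMAD3 and SMAD4 within 0.37 of 0.

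The lines themselves differed in 5 of the 9 members tested. TGFB1, INHBA and TGFBI were higher in A375 and TGFBR1 and SMAD7 in SK-MEL-28, while TGFBR2, SMAD2, SMAD3 and SMAD4 did not pass. In all, 36.3% of genes were called higher in A375 and 36.1% higher in SK-MEL-28 by the same test, so a call is common here. With library totals in place of TMM, 5831 genes were higher in A375 and 4091 in SK-MEL-28, against 4895 and 4877, and the median log2 difference of the siNC libraries was -0.18 in place of 0.01. The 5 differences of the members exceed that shift. The 2 libraries of a line, 1 of them silenced, are the only repeats of that line.

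The rest of the pathway was described with 8 lists of known ligands, receptors, regulators and target genes. They name 114 genes, of which 87 were in the table and 76 were tested. Over both lines 1 of the 76 fell and 0 rose, beside 0.674% and 0.222% of the 13501 genes tested. At an unadjusted p under 0.05 there were 16 of the 76, beside 2282 of the 13501. The median log2 change of the 76 was 0.00, and that of all genes tested was 0.01. In A375, 67 were expressed, of which 4 were higher by 1.5-fold or more and 5 were lower, beside 3.95% and 3.94% of all genes expressed there. In SK-MEL-28, 0 of 67 were higher and 6 lower, beside 6.32% and 5.08%. Between the lines, 35 of the 76 were higher in SK-MEL-28 and 31 in A375, beside 36.1% and 36.3% of all genes tested.

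Among 6 other ligands tested, 0 were called. GDF15, a stress-induced distant relative of the family, had an FPKM of 10.2 and 4.91 in A375 and 26.7 and 29.04 in SK-MEL-28, ratios of -1.09 and 0.08. AMH, the anti-Müllerian hormone, had ratios of -0.68 and -0.73 (change -0.70, edgeR adjusted p = 0.135), the latter from 19 and 11 counts. GDF11, which signals through SMAD2 and SMAD3, had 0.53 and 0.16. BMP2, a bone morphogenetic protein, had -0.23 (-0.56 to 0.10) and -0.22 (-0.70 to 0.25), and both intervals include 0.

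Of 8 tested genes of latency and activation, which hold TGF-beta in the matrix or release it, 0 were called. THBS1, a matrix glycoprotein that can activate latent TGF-beta, had an FPKM of 418 and 259 in A375 and of 1.42 and 1.12 in SK-MEL-28. The 2 lines were thus 234-fold apart (edgeR adjusted p = 4.65e-07), and the THBS1 ratios to siNC were -0.74 and -0.38 (change -0.59, SE 0.10, edgeR adjusted p = 0.0661). ITGB8, the beta chain of an integrin that activates TGF-beta, had ratios of 0.62 and 0.00. FURIN, the protease that cleaves the ligand precursors, had 0.45 and 0.14, and NRROS, which anchors latent TGF-beta on cells, had -0.04 and -0.15.

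Of 4 extracellular antagonists tested, 0 were called for the treatment. FST encodes follistatin, which binds activin. It had an FPKM of 64.0 and 62.4 in A375, where its ligand gene INHBA was expressed, and of 0.333 and 0.272 in SK-MEL-28. The related FSTL3 had 22.8 and 24.7 against 3.79 and 4.34, and FSTL1, which goes the other way, had 5.00 and 4.37 against 24.9 and 30.2. BGN, a small matrix proteoglycan that binds TGF-beta, had ratios of 0.57 and -0.29, the latter from 4 and 3 counts. SMOC1, a matrix protein that opposes bone morphogenetic proteins, was picked out after its values were seen: its counts were 114 and 488 in A375 and 35 and 25 in SK-MEL-28, so it was the list's 1 gene past 1.5-fold in A375.

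Of 11 other receptors and co-receptors, 0 were called. BMPR2, the type II receptor for bone morphogenetic proteins, had an FPKM of 3.45 and 2.17 in A375 and of 11.2 and 9.01 in SK-MEL-28. Its ratios were -0.71 and -0.36 (change -0.52, SE 0.11, edgeR adjusted p = 0.105). BAMBI, a decoy receptor without kinase activity, had 0.62 and 0.05. ACVR1C, a type I receptor also called ALK7, had 6 and 6 counts in A375 and 679 and 414 in SK-MEL-28, with a ratio of -0.74 in the latter line. BMPR1B had ratios of -0.31 (-0.82 to 0.18) and -0.07 (-0.25 to 0.12), the former from 76 and 65 counts, and both intervals include 0.

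Of the 4 other SMADs, 0 were called. SMAD5, which carries bone morphogenetic protein signals, had ratios of -0.28 and -0.52 (change -0.39, SE 0.10, edgeR adjusted p = 0.139). SMAD1, SMAD6 and SMAD9 had changes of -0.18, -0.11 and -0.17. In A375 and SK-MEL-28 the ratios were -0.09 and -0.27 for SMAD1. They were of opposite sign for SMAD6 (-0.28 and 0.09) and SMAD9 (0.18 and -0.34). The intervals of SMAD6 in SK-MEL-28 (-0.12 to 0.30) and of SMAD9 in A375 (-0.43 to 0.81) include 0. Of 19 intracellular regulators, 0 were called. SMURF2, a ubiquitin ligase that SMAD7 brings to the receptors, had an FPKM of 14.4 and 10.8 in A375 and of 5.68 and 3.44 in SK-MEL-28 (ratios -0.46 and -0.76, change -0.59, SE 0.11, edgeR adjusted p = 0.0780). The co-repressor genes SKI and TGIF2 had changes of 0.22 and 0.35, and PMEPA1, which sequesters receptor-activated SMADs, one of 0.31.

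Target genes of SMAD3 and SMAD4 held the 1 listed gene that fell. FN1, the matrix protein fibronectin, had an FPKM of 13.0 and 8.89 in A375 and of 569 and 374 in SK-MEL-28. The ratios of -0.59 (-0.65 to -0.54) and -0.64 (-0.65 to -0.63) were alike in the 2 lines although the levels were 48.2-fold apart. FN1 fell by 0.61 on the log2 scale (SE 0.06, edgeR adjusted p = 0.0161). Of the 21 tested genes of this list, 1 fell and 0 rose, beside 0.674% and 0.222% of the 13501 genes tested. The median log2 change of the list was -0.13, beside 0.01 for all genes tested. At an unadjusted p under 0.05 there were 5 of the 21, beside 2282 of the 13501. Of these 5, FN1, CCN2, LOX and THBS1 had changes below 0 and BHLHE40 had one above 0. In SK-MEL-28, 3 of 16 expressed genes were at least 1.5-fold lower (FN1, LOX and CDH2) and 0 higher, beside 5.08% and 6.32% of all expressed genes. In A375, 2 of 18 were lower (FN1 and THBS1) and 1 higher (IL11), beside 3.94% and 3.95%.

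CCN2, a matrix-associated growth regulator, had an FPKM of 63.3 and 44.0 in A375 and of 25.2 and 19.2 in SK-MEL-28. Its ratios were -0.57 (-0.64 to -0.51) and -0.43 (-0.54 to -0.33), with a change of -0.50 over both lines (SE 0.09, edgeR adjusted p = 0.0780). LOX, a collagen cross-linking enzyme, had ratios of -0.43 and -1.12 (edgeR adjusted p = 0.0940). In A375 it had 79 and 62 counts, under an FPKM of 1, and its interval of -0.94 to 0.06 includes 0. CDH2, IL11, BHLHE40, COL4A1 and PMEPA1 were picked out from this list after their values were seen. CDH2, or N-cadherin, had ratios of -0.03 and -0.60. The cytokine gene IL11 had 1.02 in A375 and -0.64 in SK-MEL-28, where it had 36 and 23 counts. BHLHE40 (0.14 and 0.44) and COL4A1 (0.25 and 0.17) were above 0 in both lines, and PMEPA1 had 0.58 and -0.06.

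Of 7 tested target genes of the SMADs that serve bone morphogenetic proteins, 0 were called. ID1 and ID2, inhibitors of helix-loop-helix factors, had ratios of 0.14 and -0.49 and of -0.21 and -0.70. ID4 had 0.63 and 0.10, from few counts in A375, and MSX2 had -0.01 and -0.32. The median ratio of the expressed genes of this list was -0.01 in A375 (5 genes) and -0.32 in SK-MEL-28 (7 genes). Over all expressed genes it was -0.01 and 0.00. In SK-MEL-28 the medians of the lists ran from -0.32 here to 0.20 in the extracellular antagonists, with -0.31 in the other SMADs.

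**Figure D4:**
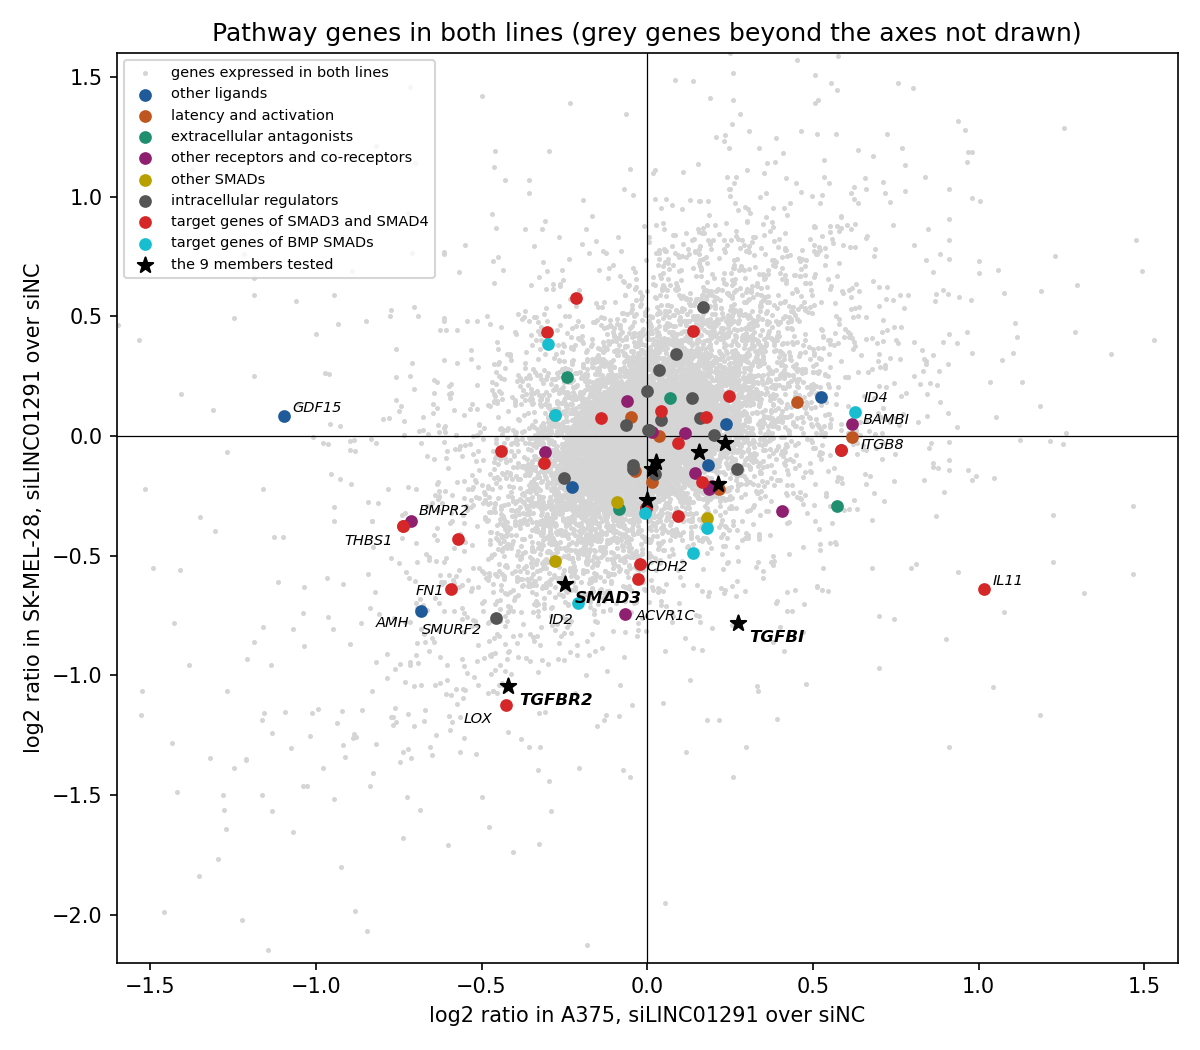
Log2 ratio of siLINC01291 to siNC in A375 (horizontal) and SK-MEL-28 (vertical), with 1 point per gene and 1 library per group. Colours mark the 8 lists, black stars the 9 members tested and grey points genes expressed in both lines, and names are given from 1.5-fold in either line. TGFBR2, LOX, SMURF2 and FN1 lie below 0 in both lines, and TGFBI and IL11 lie right of 0 in A375 and below 0 in SK-MEL-28. The intervals of LOX in A375 (-0.94 to 0.06) and of IL11 in SK-MEL-28 (-1.50 to 0.12) include 0.

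Of the 87 pathway genes in the table, 13 (14.9%) held one of the words in their 3′ UTR, close to the 14.5% of the tested genes that were searched. Of the genes named above, FN1, LOX, BMPR2, ITGB8, PMEPA1 and BHLHE40 were among the 13. The first 3 had ratios below 0 in both lines, while ITGB8 had 0.62 in A375 and PMEPA1 0.58, both near 0 in SK-MEL-28. BHLHE40 was above 0 in both lines. The A375 intervals of LOX (-0.94 to 0.06) and BHLHE40 (-0.07 to 0.35) include 0. The 13 ran from -0.71 (BMPR2) to 0.62 in A375 and from -1.12 (LOX) to 0.44 (BHLHE40) in SK-MEL-28.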

How the data were processed

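The 4 libraries were made from poly(A)-selected RNA and read on an Illumina sequencer. Per the labels' protocols, fastp trimmed the reads and removed duplicates, HISAT2 aligned them, StringTie added transcripts and HTSeq counted reads per gene. Removing duplicates without molecular identifiers can lower the counts of abundant genes. The submitters' processing notes name the build hg19, and DESeq2 and edgeR without a role. No source used here gives the annotation release, and coordinates come from GENCODE 29 on GRCh38, by Ensembl ID. The authors deposited raw counts, which entered the tests unchanged. The deposited CPM and TPM were not used for tests, and the FPKM, which the authors divided by a single length per gene, served for levels and filters.

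The members, the pathway lists and the marker lists were chosen with earlier results of these data known. The joint test was edgeR 4.0.16 (R 4.3.3) with TMM scaling and terms for line and treatment, on genes that reached an FPKM of 1 in 2 or more libraries, with Benjamini-Hochberg adjustment. Libraries are paired by their cell line. Nothing says that libraries came from separate cultures, so p-values measure only the spread between these samples. Ratios within a line used a prior count of 2. All 10 members and LINC01291 were named. From each list, genes that passed the test and up to 4 expressed genes with the largest mean ratio were named, and for INHBA its 5 nearest genes. One listed target gene is not reported here and was left out of the list's counts. The scripts were tested on simulated data. Alternatives were DESeq2 1.42.0, limma 3.58.1 on log2(FPKM + 1), other scaling, prior counts and filters, and fits without a term. Promoter windows are from RefSeq, in which all 10 members matched by symbol. Of a gene's principal transcripts, the one with the longest 3′ UTR (at least 50 bases) was searched.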

Additional observations from a re-analysis of the deposited data

Results flagged for a closer look

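TGFBR1 and TGFBI had ratios of opposite sign in the lines. For the type I receptor TGFBR1, the log2 ratio in SK-MEL-28 minus that in A375 was -0.41, from 0.21 in A375 to -0.20 in SK-MEL-28. For the matrix gene TGFBI it was -1.06, from 0.27 to -0.78, the SK-MEL-28 values resting on 119 and 70 counts. Neither difference was tested, since there is 1 library per group.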

How the results depend on the processing

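For all genes, the test over both lines called 91 lower and 30 higher. DESeq2's Wald test called 203 and 99, limma on log2(FPKM + 1) called 5 and 1, the fit without a filter 238 and 146, and an FPKM of at least 5 gave 27 and 5. Without the cell line as a block that pairs the libraries, 0 fell and 0 rose, with 51 genes at an unadjusted p under 0.05. The count of members that fell was 0 in the analysis reported and 1 (TGFBR2) by DESeq2 and without a filter. Between the lines, the filter at 5 left 2997 genes higher in A375 and 3003 in SK-MEL-28, of fewer genes tested. The 2 members at least 1.5-fold lower in SK-MEL-28 became 1 with library totals, with log2(FPKM + 1) and with log2(FPKM + 0.1). Near-zero changes over both lines turned sign: SMAD2 to 0.00052 (limma) and 0.0023 (library totals), TGFBI to 0.035 (limma) and 0.23 (no block), and TGFBR1 to -0.0012 (no filter) and -0.11 (no block). Between the lines, SMAD3 passed at -0.38 with limma and at -0.44 with library totals, and TGFBR2 at 0.40 without a filter. The fit without a filter, the only one to test TGFB2, called 4 members higher in A375 against 3, and TGFB2 was the added one. Its log2 ratio of SK-MEL-28 to A375 in the siNC libraries was -3.50. The causes were not tested. Scaling by library totals in the joint fits was chosen after seeing the data. Of the values of single members, 208 stayed on the same side of the test's threshold or, without a test, moved within the counting interval. Another 3 moved, 6 tested changes turned sign and 5 newly passed. Among the 208, the near-zero ratios of SMAD7 in A375 (to 0.01 to 0.05) and INHBA in SK-MEL-28 (to 0.00) turned sign under library totals and both log2(FPKM) settings, and SMAD7 also with size factors. Leaving out a library was not run, since each group has 1. TGFB2 at 7 to 117 counts and TGFBI and INHBA in SK-MEL-28 are limited by depth.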
